A study of Mus musculus with 6 samples.

Results

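The nuclear genes of oxidative phosphorylation were taken as the protein-coding genes whose symbol begins with Nduf, Uqcr, Atp5 or Cox4 to Cox8, together with Sdha, Sdhb, Sdhc, Sdhd and Cyc1. The rule found 95 genes among the 55769 features of the files, and 90 of them reached 1 TPM (a length-scaled transcript abundance with the same total in every library) in at least 3 libraries. By the complex their product belongs to, 36 were in complex I, 4 in complex II, 9 in complex III, 16 in complex IV and 17 in complex V, and the other 8 were the complex I assembly factors Ndufaf1 to Ndufaf8. The 5 genes that did not reach the level were the muscle and testis isoforms Cox6a2, Cox7b2, Cox8b and Cox8c and a second feature named Atp5o. All were measured by RNA-seq of cochlear RNA from mice on postnatal day 3, with 3 libraries of genotype Plscr5-/- and 3 of wild type. The cochlea is the inner ear's organ of hearing, and the sample titles do not say which part of it was taken. Plscr5 is a member of the phospholipid scramblase family, and the comparison asked which cochlear transcripts differ without it. How the allele was made is not given in the sources used here, and the extraction text also mentions Pou4f3 mutant mice, which no library lists as its genotype. Neither the number of cochleae per library nor the use of a separate animal for each is stated in the labels, so the spread that p-values measure is that between libraries, which may be technical.

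Oxidative phosphorylation takes electrons from NADH at complex I and from succinate at complex II, passes them through coenzyme Q, complex III and cytochrome c to oxygen at complex IV, and uses the proton gradient built on the way to make ATP at complex V, the ATP synthase. All these complexes except complex II combine subunits made from nuclear genes with a few made inside the mitochondrion from mitochondrial DNA, and dedicated assembly factors, which are not part of the finished enzyme, put them together. In the cochlea the sensory hair cells and the stria vascularis, which pumps potassium into the endolymph, are known for a high demand for ATP.

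Plscr5 (ENSMUSG00000095654) stood at 4.30, 3.69 and 5.01 TPM in knockout libraries 1 to 3 and at 14.5, 12.4 and 9.27 TPM in wild-type libraries 1 to 3, so the targeted transcript was lower but not absent in the knockout (exact permutation p = 0.1, two-sided, the smallest that 3 against 3 allows). In limma its log2 fold change was -1.28 with an adjusted p of 0.29, so Plscr5 itself did not pass the adjusted threshold of 0.05. Markers of hair cells were present in all libraries, with all 11 tested and a summed level of 321 to 374 TPM in the knockout and 351 to 387 TPM in the wild type. In the knockout mean 8 of the 11 were lower, and the median log2 fold change of the 11 was -0.13. The groups did not overlap in 3 of them (Otof, Slc26a5 and Atoh1), where 4.74% of all features tested were lower without overlap. Slc26a5 was at only 2.02 to 3.44 TPM, and Otof was at 92.5 TPM in wild-type library 3 against 73.0 and 74.5 TPM in wild-type libraries 1 and 2. None of the 11 passed the adjusted threshold in limma, and the part of these markers in the results below was not tested. Wild-type library 3 stood apart: its 14 neuronal markers summed to 358 TPM against 680 to 1035 in the other 5 libraries, and its 13 Schwann cell markers to 559 against 1363 to 2277. In bulk tissue, fewer cells of a type and less RNA per cell cannot be told apart. Leading counts and medians, and the values of several genes, are also given without it. Log2 fold changes below were taken on log2(TPM + 1) values, wild type subtracted from knockout, so that differences of low genes are understated, and errors are SD over 3 libraries unless named as a standard error. Depth is unknown, because TPM keeps no read totals.

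No gene of the 90 passed the test for a genotype difference: the smallest adjusted p was 0.989 (limma with Benjamini-Hochberg adjustment over 17097 features), where 0.0117% of all features tested passed. The values nevertheless lay mostly on one side. In 75 of the 90 genes the knockout mean was higher and in 15 lower, while 46.6% of all features tested had a log2 fold change above 0. The median log2 fold change was 0.08 over the 90 genes, with a middle range of 0.03 to 0.13, and -0.01 over all features tested. Without wild-type library 3, the knockout mean was higher in 67 of the 90 and the median was 0.05. At an unadjusted p under 0.05 there were 9 genes on the higher side, where 2.15% of all features lay, and 0 on the lower side, where 1.85% lay. The higher count was 5 without wild-type library 3, 3 without knockout library 2, 4 without knockout library 3 or wild-type library 1, 16 without wild-type library 2 and 2 with a score of neuronal and Schwann cell markers as a covariate. The groups did not overlap with the knockout higher in 13 genes (4.6% of all features) and with the knockout lower in 1 gene (4.74% of all features).

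**Figure D1:**
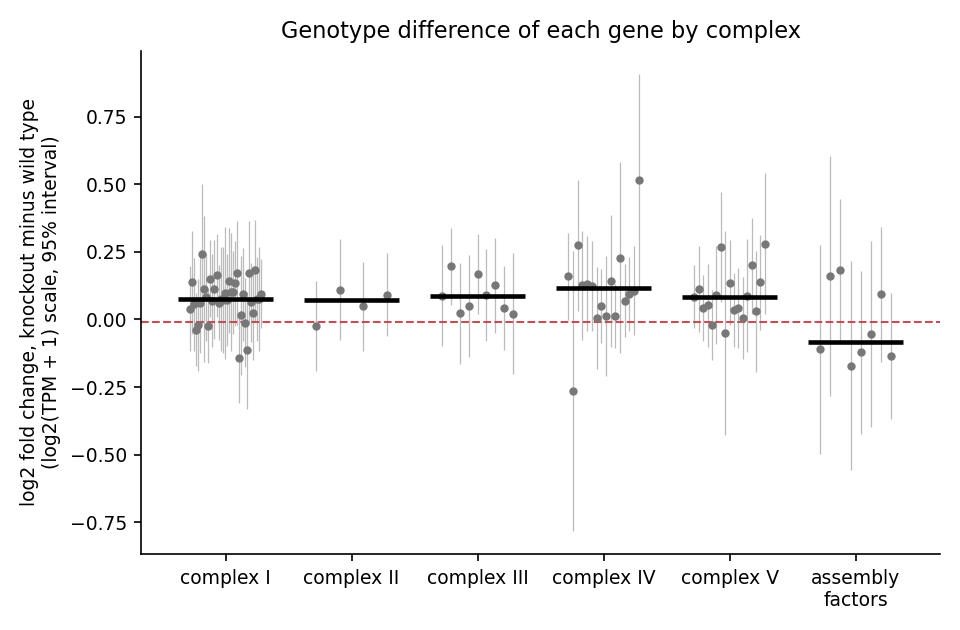
Each point is 1 gene, placed by complex on the x axis, with its log2 fold change (knockout minus wild type, log2(TPM + 1) scale) and 95% interval on the y axis; the dashed line is the median of -0.01 over all features tested. Points of complexes I to V lie mostly above the line, with medians from 0.07 to 0.12, and 5 of the 8 assembly factors lie below 0.

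The differences were small as well as uncalled. In 87 of the 90 genes the 95% interval of limma lay within 1.5-fold in either direction, against 72.4% of all features, and the exceptions were Ndufa4l2, Cox4i2 and Ndufaf2. The 90 genes are abundant, with a median of 169 TPM against 16.6 TPM over all features tested. Among protein-coding genes with a mean of 50 TPM or more, the interval lay within 1.5-fold in 3162 of 3295, so such intervals are common at these levels. The summed level of the 90 genes was 19767, 20508 and 20547 TPM in the knockout libraries and 19022, 20093 and 18117 TPM in the wild-type libraries. Wild-type library 2 thus lay above knockout library 1, and the groups overlapped. The mean sum was 20270 ± 439 TPM in knockout and 19080 ± 989 TPM in wild-type libraries, 6.27% higher in the knockout. Without wild-type library 3 the wild-type mean was 19557 TPM and the difference 3.66%. Together these genes made up 1.81% to 2.05% of all TPM in a library.

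One library carried much of the spread. Wild-type library 3 was the lowest of the 6 in 52 of the 90 genes and the highest in 0, and it was the lowest for 20.9% of all features. Wild-type library 1 was the lowest in 20 genes. The median deviation of the 90 genes from their own means was 0.01, 0.07 and 0.05 (log2) in the knockout libraries and -0.05, 0.03 and -0.10 in the wild-type libraries. Wild-type library 2 therefore sat between the knockout libraries, while the other wild-type libraries sat below all of them. Of the 27 neuronal and Schwann cell markers, 25 had a higher mean in the knockout, with median log2 fold changes of 0.82 and 0.73, and wild-type library 3 was the lowest in 24. With a score of these markers as a covariate, 56 of the 90 genes had a log2 fold change above 0 and the median was 0.03. That score was 0.58, 0.33 and 0.14 in knockout libraries, against -0.01, 0.17 and -1.20 in wild-type libraries. It went partly with genotype, so the fit cannot tell nerve content from genotype. The 6 cell division markers were also all higher in the knockout mean, with summed levels of 69.1 to 95.9 TPM against 43.2 to 77.2 TPM. Osteoblast markers had 6 of 7 tested genes higher. The listed 8 summed to 222 to 276 TPM in the knockout, 187 and 243 TPM in wild-type libraries 1 and 2 and 85.5 TPM in wild-type library 3. Most of that sum was Spp1, at 147, 199 and 40.1 TPM in wild-type libraries 1 to 3. Wild-type library 3 was the lowest in 4 of the 7, Spp1 among them, but not in Col1a1, Runx2 or Ibsp. Stria vascularis markers had 4 of 5 tested genes with a log2 fold change below 0, and sums of 227 to 267 TPM against 244 to 269 TPM. Slc12a2 and Atp1b2, at means of 117 and 101 TPM, made up most of these sums. Kcnj10 was at 25.2 TPM, Kcnq1 at 5.27 TPM and Kcne1 at 1.25 TPM, with equal group means for Kcne1. Red blood cell markers had all 5 tested genes lower in the knockout mean, with the listed 6 summing to 442 TPM in knockout library 1, 1482 TPM in knockout library 2 and 634 to 1048 TPM in the rest. The part of any of these groups of markers in the result was not tested. The 90 genes also have short transcripts, with a median length of 622 bases against 1409 over all features. Among protein-coding genes under 1000 bases the knockout mean was higher in 51.5%, with a median log2 fold change of 0.00, and with the length trend removed the median of the 90 genes was 0.07.

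**Figure D2:**
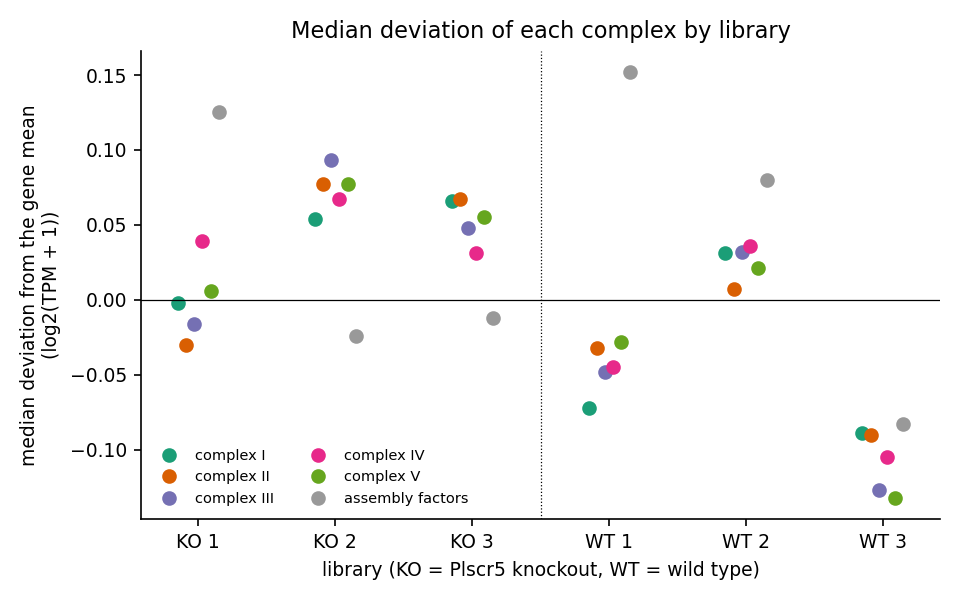
For each library on the x axis, points give the median deviation of the genes of each complex from their own means over the 6 libraries, in log2(TPM + 1), with 1 colour per complex or for the assembly factors. For complexes I to V wild-type library 3 is the lowest point of the 6 libraries, between -0.09 and -0.13, and the assembly factors do not follow the complexes in wild-type library 1, where they stand at 0.15.

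By level, complex V genes had the highest median, 309 TPM, followed by complex IV at 282 TPM, complex III at 218 TPM, complex I at 131 TPM and complex II at 117 TPM, while the assembly factors had a median of 20.2 TPM. The ranges overlapped widely between complexes I, III, IV and V. Complex V ran from 21.5 TPM for Atp5g2 to 1122 TPM for Atp5b, complex IV from 7.95 TPM for Ndufa4l2 to 772 TPM for Cox4i1, and complex III from 99.2 TPM for Uqcrfs1 to 588 TPM for Uqcrh. The 4 genes of complex II lay closest together, between 107 and 140 TPM (means over 6 libraries). By the same means, no assembly factor exceeded 37.6 TPM, which was lower than 76 of the 82 subunit genes.

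**Figure D3:**
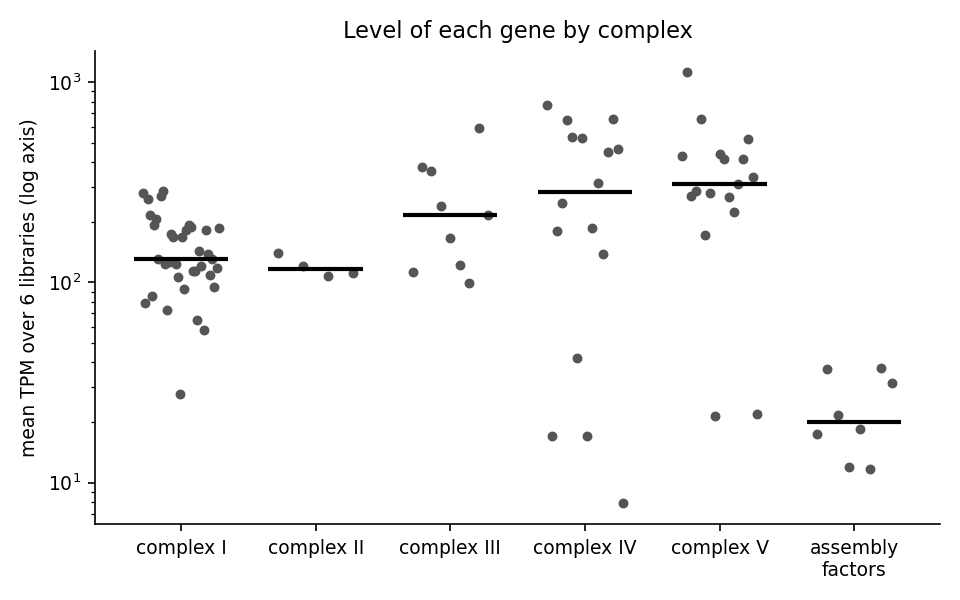
Each point is the mean TPM of 1 gene over the 6 libraries, on a log axis, placed by complex. The 8 assembly factors lie between 11.7 and 37.6 TPM, below nearly all subunits, and the 4 complex II genes are the most tightly grouped.

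Complex I, the NADH dehydrogenase, had 36 genes. The knockout mean exceeded the wild-type mean in 30 and was below it in 6, and the median log2 fold change was 0.08, or 0.06 without wild-type library 3. Its core subunits, which carry the flavin and the iron-sulfur clusters, differed little. Ndufs8, an iron-sulfur subunit, was at 140, 136 and 143 TPM in knockout libraries, against 118, 137 and 115 TPM in wild-type libraries, with a log2 fold change of 0.18 (unadjusted p = 0.054, limma). Only wild-type library 2 overlapped the knockout. Among other core subunits the log2 fold changes were 0.08 for Ndufv1, which binds the flavin, 0.08 for Ndufv2, 0.02 for Ndufs7, 0.01 for Ndufs1 and -0.01 for Ndufs3. Without wild-type library 3 that of Ndufs1 was -0.06. Ndufs1, the largest core subunit, was at 65.5 ± 3.76 TPM in knockout and 65.0 ± 6.94 TPM in wild-type libraries.

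The clearest separations in complex I were among accessory subunits, which surround the core and have no redox centre. Ndufb10, of the membrane arm, was at 183, 185 and 185 TPM in knockout libraries, against 161, 177 and 156 TPM in wild-type libraries (log2 fold change 0.16, standard error 0.07, unadjusted p = 0.040). Ndufa8 was at 131, 128 and 132 TPM against 118, 121 and 113 TPM (log2 fold change 0.15, standard error 0.06, unadjusted p = 0.0408). In both genes every knockout library lay above every wild-type library, and the same held for Ndufa3, Ndufb9 and Ndufv3. Ndufa3 had the largest log2 fold change of the complex, 0.24, with knockout library 3 at 269.7 TPM against 201 and 205 TPM in the other knockout libraries and 182 to 194 TPM in the wild type. Ndufc2, a membrane-arm accessory subunit, was the only gene of the 90 to separate in the other direction, at 106, 108 and 110.0 TPM in knockout libraries, against 129, 114 and 115 TPM in wild-type libraries (log2 fold change -0.14, unadjusted p = 0.0817). Ndufa7, the most abundant gene of complex I, was at 284 ± 6.95 TPM in knockout and 288 ± 13.2 TPM in wild-type libraries, a difference smaller than the spread. The least abundant was Ndufb4, whose reads may be shared with a copy described further on.

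**Figure D4:**
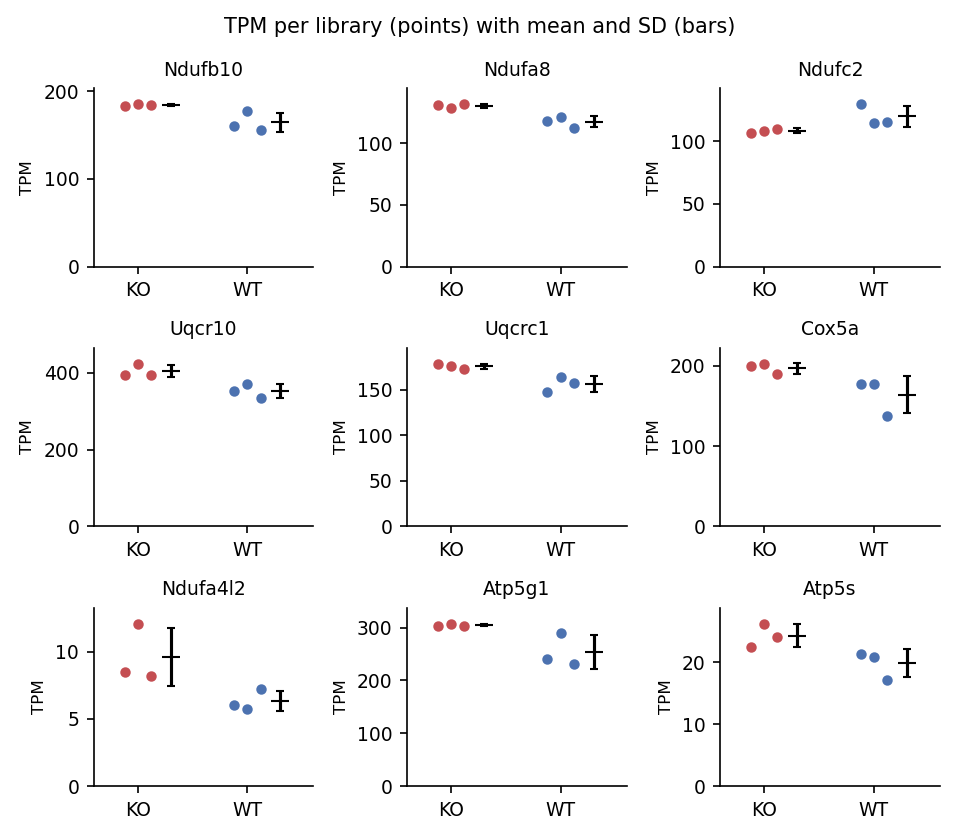
TPM in each library for 9 genes, with knockout (KO) and wild-type (WT) libraries as points and the group mean and SD as bars; each panel starts at 0. The knockout points lie above all wild-type points in every panel except Ndufc2, where they lie below, and the gaps are small beside the levels.

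Complex II, succinate dehydrogenase, is the enzyme shared with the citric acid cycle, and all its subunits are nuclear. Sdha, the flavoprotein that oxidizes succinate, was at 134, 148 and 133 TPM in knockout libraries, against 135, 140.2 and 148 TPM in wild-type libraries, so the groups overlapped fully (log2 fold change -0.02). The iron-sulfur subunit Sdhb stood at 0.11, and the membrane anchors Sdhc and Sdhd at 0.05 and 0.09, as log2 fold changes. Without wild-type library 3 these were 0.04, 0.02 and 0.07. Wild-type library 3 was the lowest of the 6 in Sdhb, Sdhc and Sdhd, but next to the highest in Sdha. The median over the 4 genes was 0.07, and 0.03 without that library.

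Complex III passes electrons from coenzyme Q to cytochrome c. All 9 of its genes were higher in the knockout mean, with log2 fold changes from 0.02 to 0.20, a median of 0.09 and, without wild-type library 3, a median of 0.04, and the median was 0.00 with the neuronal and Schwann cell score. Uqcr10, a small subunit of the membrane part, had the smallest p of the 90 genes and ranked 145 of 17097 features by p. It was at 395, 423 and 395 TPM in knockout libraries, against 352, 372 and 335 TPM in wild-type libraries, a log2 fold change of 0.20 with a 95% interval of 0.05 to 0.34 (unadjusted p = 0.0136, limma). The groups did not overlap, and the log2 fold change was 0.16 without wild-type library 3. Uqcrc1, a core protein of the matrix side, was at 178, 176 and 174 TPM against 148, 165 and 158 TPM, again without overlap (log2 fold change 0.17, unadjusted p = 0.0298). The catalytic subunits were less separated. Uqcrfs1, the Rieske iron-sulfur protein, had a log2 fold change of 0.13, with wild-type library 1 at 102 TPM inside the knockout range of 97.9 to 108 TPM, and Cyc1, cytochrome c1, had 0.09. Uqcrc2, the partner of Uqcrc1, had 0.09, and 0.04 without wild-type library 3. Uqcrh, the hinge protein and the most abundant of the complex, was at 597 ± 36.3 and 579.7 ± 31.0 TPM, a difference smaller than the spread within either group.

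Complex IV, cytochrome c oxidase, had a median log2 fold change of 0.12 over 16 genes, of which 15 were higher. The median was 0.06 without wild-type library 3 and 0.17 without wild-type library 2, and with the neuronal and Schwann cell score it was 0.02. Differences between complexes were not tested, and the order of their medians changed between settings. Its 3 mitochondrially encoded core subunits are surrounded by nuclear ones, several of which exist as tissue isoforms. Cox4i1, the main isoform of the largest nuclear subunit, was at 777, 813 and 853 TPM in knockout libraries, against 674, 788 and 728 TPM in wild-type libraries (log2 fold change 0.16, unadjusted p = 0.0528). Wild-type library 2 lay between knockout libraries 1 and 2. Cox5a, a subunit of the matrix side, was at 199.98, 202 and 189 TPM against 177, 178 and 137 TPM, without overlap (log2 fold change 0.27, standard error 0.10, unadjusted p = 0.0314). Wild-type library 3 alone was far lower, and without it the log2 fold change was 0.15. Cox5b, the zinc-binding subunit, had 0.13, and 0.06 without wild-type library 3 or without knockout library 3.

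Except in the Cox7a set, the ubiquitous isoforms made up most of each isoform set of complex IV. The muscle isoforms Cox6a2 and Cox8b were at or near 0, at 0 to 0.16 TPM and, for Cox8b, at 1.46 TPM in wild-type library 1 and listed at 0 in the rest. The testis isoform Cox8c was listed at 0 in every library, and Cox7b2 reached 0.54 TPM at most. Markers of skeletal muscle summed to 7.55 to 12.6 TPM over 12 genes, of which 4 were tested, those of heart muscle to 12.3 to 18.6 TPM over 4 genes, and those of testis to 0 to 1.12 TPM over 3 genes. Against these low levels Cox6b2, known as the testis isoform of Cox6b, stood at 42.0 ± 1.31 TPM in knockout and 41.9 ± 2.65 TPM in wild-type libraries, which was 7.02% ± 0.21 and 7.60% ± 0.79 of the Cox6b total. Cox7a1, the heart and skeletal muscle isoform, stood at 17.2 ± 0.642 and 17.0 ± 1.11 TPM, or 3.26% and 3.38% of the Cox7a total. The rest of that total was split between Cox7a2, with 37.0% ± 0.43 in the knockout and 34.9% ± 3.1 in the wild type, and Cox7a2l, a factor of supercomplex assembly, with 59.8% and 61.7%. The wild-type share of Cox7a2 was 31.5% in library 3 and 35.9% and 37.5% in the others.

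Ndufa4l2 and Cox4i2 are low isoforms known to respond to oxygen. Ndufa4l2, the paralog of the complex IV subunit Ndufa4, had the largest log2 fold change of the 90 genes, 0.51 with a 95% interval of 0.12 to 0.91 (unadjusted p = 0.017, limma). It was at 8.45, 12.1 and 8.20 TPM in knockout libraries, against 6.04, 5.76 and 7.19 TPM in wild-type libraries, without overlap, and the log2 fold change was 0.60 without wild-type library 3. Ndufa4 itself was at 479.6 ± 19.7 and 446 ± 36.8 TPM. Cox4i2, known from lung, had the lowest log2 fold change with all libraries, -0.27 with a standard error of 0.22. It was at 12.1, 19.96 and 14.5 TPM in knockout libraries, against 21.8, 13.7 and 21.0 TPM in wild-type libraries, so the groups overlapped. With 1 library left out its log2 fold change ran from -0.47 (without wild-type library 2) to -0.11 (without knockout library 1), and with the neuronal and Schwann cell score it was -0.06. Its share of the Cox4 total was 1.87% ± 0.46 and 2.55% ± 0.75.

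Complex V had 17 genes, 15 of them higher in the knockout mean, with a median log2 fold change of 0.08. The median was 0.02 without wild-type library 3, which was the lowest library in 14 of the 17, and with the neuronal and Schwann cell score it turned to -0.01. Atp5b, the beta subunit that holds the catalytic sites and the most abundant gene of the set, was at 1098, 1187 and 1209 TPM in knockout libraries, against 1149, 1093 and 993 TPM in wild-type libraries (log2 fold change 0.11, groups overlapping). Without wild-type library 3, or with the neuronal and Schwann cell score as a covariate, that of Atp5b was 0.05. Atp5a1, the alpha subunit, was at 441, 445 and 442 TPM against 417, 428 and 407 TPM, without overlap but with a log2 fold change of only 0.08. Atp5c1, the gamma subunit of the rotating stalk, also did not overlap, at a log2 fold change of 0.04. Atp5l, subunit g of the membrane part, was at 414, 435 and 478 TPM against 363, 415 and 376 TPM (log2 fold change 0.20, unadjusted p = 0.0319). Atp5s, coupling factor B, was at 22.5, 26.2 and 24.1 TPM against 21.4, 20.9 and 17.2 TPM, without overlap (log2 fold change 0.28, unadjusted p = 0.0388), and at 0.19 without wild-type library 3. Atp5e, the epsilon subunit, had a log2 fold change of -0.02.

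The ring that turns as protons pass is built from subunit c, and Atp5g1, Atp5g2 and Atp5g3 each encode the same mature subunit. The last 90 coding bases before the stop codon are shown, from GENCODE M21, because they let a reader see how far short reads can separate these transcripts; capitals mark the columns that differ between them. The processed pseudogene Gm10175 is shown beside them.
Atp5g1: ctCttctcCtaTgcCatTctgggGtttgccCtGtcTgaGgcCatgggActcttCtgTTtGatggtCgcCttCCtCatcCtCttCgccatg
Atp5g2: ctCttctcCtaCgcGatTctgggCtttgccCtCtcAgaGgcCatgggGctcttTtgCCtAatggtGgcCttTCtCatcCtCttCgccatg
Atp5g3: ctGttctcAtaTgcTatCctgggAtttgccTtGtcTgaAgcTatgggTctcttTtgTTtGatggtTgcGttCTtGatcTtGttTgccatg
Gm10175: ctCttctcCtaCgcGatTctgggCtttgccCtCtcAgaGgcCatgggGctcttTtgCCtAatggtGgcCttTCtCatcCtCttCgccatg
Over their last 225 coding bases, Atp5g1 and Atp5g2 share 191, Atp5g1 and Atp5g3 share 180, and Atp5g2 and Atp5g3 share 177. Gm10175 matches Atp5g2 in every base of its 441 coding bases.

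Atp5g1 was at 303, 307 and 303 TPM in knockout libraries, against 241, 289.9 and 231 TPM in wild-type libraries. All knockout libraries were higher than all wild-type libraries, and wild-type library 2 was nearest (log2 fold change 0.27, 95% interval 0.07 to 0.47, unadjusted p = 0.0157, limma). It ranked 173 of 17097 features by p, and its log2 fold change was 0.20 without wild-type library 3. Atp5g3, the most abundant of the 3 genes, was at 436, 468 and 465 TPM against 405, 449.9 and 392 TPM, overlapping through wild-type library 2 (log2 fold change 0.14). Atp5g1 gave 39.9%, 38.8% and 38.2% of the summed TPM of the 3 genes in the knockout and 36.2%, 37.9% and 35.8% in the wild type. Atp5g3 gave 58.3% ± 0.94 and 60.2% ± 1.2. With Gm10175 added to the sum, the share of Atp5g1 was 25.8% ± 0.89 and 23.3% ± 1.5.

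The assembly factors of complex I were low and mixed in direction. Of 8, 3 were higher and 5 lower in the knockout, the median log2 fold change was -0.08, and it was -0.12 without wild-type library 3; whether they differ from the subunits was not tested. Leaving out knockout library 3 turned the median to 0.03. Their summed level was 188 ± 8.61 TPM in knockout and 187 ± 16.5 TPM in wild-type libraries. Ndufaf3 was the highest in fold, at 23.8, 21.4 and 24.3 TPM against 17.8, 20.3 and 23.0 TPM (log2 fold change 0.18). Ndufaf4, which works together with Ndufaf3 early in assembly, was at 12.1, 9.73 and 11.6 TPM against 14.1, 14.5 and 9.74 TPM (-0.17). Ndufaf8, a partner of Ndufaf5, was at 27.8, 32.3 and 29.4 TPM against 35.3, 33.9 and 29.5 TPM (-0.14). Without wild-type library 3 the log2 fold changes were 0.27 for Ndufaf3, -0.34 for Ndufaf4 and -0.21 for Ndufaf8, and with the neuronal and Schwann cell score the median of the 8 was -0.22. The groups overlapped in all 8 genes. Ndufaf7, a methyltransferase, was the most abundant, at 38.8 ± 3.06 and 36.4 ± 4.31 TPM, and Ndufaf6 the least. Ndufaf2 was at 37.9 to 41.6 TPM in 5 libraries and at 24.3 TPM in wild-type library 3.

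For 4 of the 90 genes the deposited level cannot be read alone, because the most abundant near-identical copy elsewhere in the genome held from 39.9% of the gene's own TPM (Atp5l) to many times that (Atp5g2). A search of the coding sequences found copies of at least 95% identity over at least 80% of the coding length for 20 of the 90 genes, 37 copy features in all. In 16 of the 20 the copies together held 0.56% or less of the gene's own TPM. The exceptions were Atp5g2, Ndufb4, Cox7c and Atp5l. Positions are those of GENCODE M21 on GRCm38; the files give none. Atp5g2 (chr15:102662864-102672352, minus strand) was at 21.3, 16.6 and 25.8 TPM in knockout libraries, against 19.4, 24.6 and 21.3 TPM in wild-type libraries. Its single-exon copy Gm10175 (chr7:23946646-23947290) was at 373, 415 and 416 TPM and at 388, 397 and 402 TPM. Ndufb4 (chr16:37647170-37654453) was at 25.1 to 30.7 TPM, and Ndufb4c (chr15:73809507-73809896), identical over all 390 coding bases, was at 245 to 273 TPM. The copies thus carried most of the summed level in both pairs, and how the reads were divided between a gene and its copy is not known.

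Cox7c (chr13:86044816-86046904) and Gm12338 (chr11:75599763-75599954) are the plainest case: the copy is annotated over the 192 coding bases alone, and both read as follows, shown because no base of it can assign a read to either.
Cox7c and Gm12338: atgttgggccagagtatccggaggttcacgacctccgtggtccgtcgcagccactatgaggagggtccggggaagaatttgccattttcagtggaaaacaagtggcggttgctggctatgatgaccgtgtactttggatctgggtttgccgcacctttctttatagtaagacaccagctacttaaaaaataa
Cox7c was steady, at 459, 459 and 458 TPM in knockout libraries, against 442, 459.8 and 411 TPM in wild-type libraries. Gm12338 was not, at 750.2, 453 and 573 TPM against 490.4, 475 and 503 TPM. The log2 fold change of their summed TPM was 0.17, against 0.07 for Cox7c alone. Atp5l (chr9:44912557-44920742) and its copy Gm10221 (chr5:24581554-24581862), which holds 309 of its 312 coding bases, went opposite ways. The copy was at 124, 169 and 173 TPM in knockout libraries, against 198, 181 and 146 TPM in wild-type libraries, with a log2 fold change of -0.18, and that of the summed TPM was 0.09 against 0.20 for Atp5l alone (0.08 with all 8 copies added). Over the 86 genes without these 4, the knockout mean was higher in 72 and the median log2 fold change was again 0.08.

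**Figure D5:**
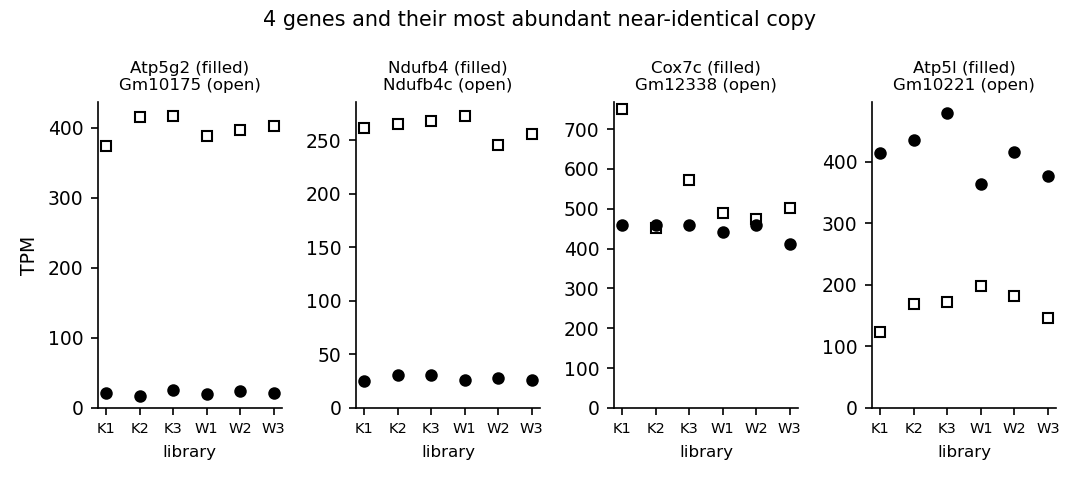
For 4 genes (filled circles) and their most abundant near-identical copy (open squares), TPM is plotted for knockout libraries K1 to K3 and wild-type libraries W1 to W3. The copy lies far above the gene for Atp5g2 and Ndufb4, at or above it for most libraries of Cox7c, and below it for Atp5l.

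The promoters of many of these genes are known to carry sites for the factors NRF1, GABP (a member of the ETS family), YY1 and ERR-alpha. RefSeq promoters of GRCm38.p6, 250 bases before to 50 bases after the start, were found for 74 of the 90 genes and searched on both strands for fixed letters. The NRF1 letters, the run of capitals in the Uqcrc1 promoter printed below, were in 7 of 74 promoters (9.46%), against 1.07% of the 27025 genes of the table. The ETS/GABP letters CCGGAAG were in 18 (24.3% against 9.93%), the YY1 letters AAGATGGC in 11 (14.9% against 3.19%) and the ERR-alpha letters TCAAGGTCA in 2 (2.70% against 0.466%). At least 1 of the 4 was in 33 of 74 (44.6% against 13.8%). The 27025 genes were not limited to those expressed here, nor matched to the 74 in level or base composition. The YY1 letters were in 7 of the 32 complex I promoters, 3 of the 15 of complex V and 0 of the 12 of complex IV. The NRF1 letters were in Ndufa11, Uqcrc1, Cox6a1, Atp5g2, Atp5k, Ndufaf4 and Ndufaf5, which spans complexes I, III, IV and V and the assembly factors. A match is a description of letters only. Below are the promoter of Uqcrc1, a gene whose groups did not overlap, and that of Cox6a1, which holds letters of both NRF1 and ETS/GABP; capitals mark the matches, on either strand.
Uqcrc1, chr9:108936398-108936697, plus strand: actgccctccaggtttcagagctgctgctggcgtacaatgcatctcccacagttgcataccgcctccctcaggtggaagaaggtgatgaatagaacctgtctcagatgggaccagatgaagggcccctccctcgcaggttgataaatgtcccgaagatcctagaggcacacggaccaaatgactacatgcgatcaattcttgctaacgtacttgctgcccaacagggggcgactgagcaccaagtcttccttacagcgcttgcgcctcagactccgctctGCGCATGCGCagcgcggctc
Cox6a1, chr5:115348909-115349208, minus strand: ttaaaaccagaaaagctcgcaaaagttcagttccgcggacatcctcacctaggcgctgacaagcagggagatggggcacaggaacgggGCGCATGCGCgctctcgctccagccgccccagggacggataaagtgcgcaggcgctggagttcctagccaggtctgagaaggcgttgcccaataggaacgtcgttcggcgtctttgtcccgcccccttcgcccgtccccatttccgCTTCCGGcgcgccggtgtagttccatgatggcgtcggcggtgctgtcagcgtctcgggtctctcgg
The NRF1 match began at position 31 from the start in Uqcrc1 and at -162 in Cox6a1, where the ETS/GABP match began at -16. The 7 genes with the NRF1 letters had a median log2 fold change of 0.06 and the 67 without them 0.09. With the ETS/GABP letters the median was 0.09, and without them also 0.09. With the YY1 letters it was 0.06 and without them 0.09.

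The partners of these genes were read in the same fit. Of the 13 mitochondrially encoded subunits, 7 were higher and 6 lower in the knockout mean and the median log2 fold change was 0.01. They made up 6.54% to 7.70% of all TPM, more than all 90 nuclear genes together. Much of that share came from mt-Atp8, annotated over 204 bases, at 29410 to 36337 TPM, while mt-Atp6 was at 401 to 619 TPM. How reads were divided between the mitochondrial genes is not known, so their levels cannot be compared with confidence. mt-Nd4l, a membrane subunit of complex I, was 1 of the 2 features of the whole fit past the threshold. It was at 708, 718 and 687 TPM in knockout libraries, against 1180, 1087 and 1231 TPM in wild-type libraries, and it was lower by 0.72 on the log2 scale (adjusted p = 0.0163, limma). The groups did not overlap. By contrast mt-Nd4, another complex I subunit, was level at 4090 ± 253 TPM in knockout and 4196 ± 65.9 TPM in wild-type libraries (log2 fold change -0.04). With 1 library left out the log2 fold change of mt-Nd4l stayed between -0.77 and -0.69, but the adjusted p passed the threshold in only 2 of the 6 cases, those without wild-type library 2 or 3. With all 6 libraries the adjusted p of mt-Nd4l was 0.0924 with no filter, 0.065 with median-ratio scaling, 0.318 with no intensity trend and 0.174 with the replicate number as a block. Next came mt-Nd3, at 1058 ± 151 and 1320 ± 106 TPM, which did not pass the adjusted threshold. mt-Co2 and mt-Co3, core subunits of complex IV, varied widely, from 135 to 605 TPM and from 83.2 to 543 TPM. In the other 9 (mt-Nd1, mt-Nd2, mt-Nd4, mt-Nd5, mt-Nd6, mt-Cytb, mt-Co1, mt-Atp6 and mt-Atp8) the means were closer than the spread within 1 of the groups or both.

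Of 39 tested assembly factors outside the Nduf names (41 listed), 25 lay above 0 and 14 below 0 in log2 fold change, their median was 0.04, and 0 passed the adjusted threshold in limma. An unadjusted p under 0.05 was reached by 2 on the higher side, where 2.15% of all features lay, and by 0 on the lower side, where 1.85% lay. Both act on complex III, and whether the factors of that complex differ from the rest was not tested. Lyrm7, which guides the Rieske protein into the complex, was at 6.17, 6.59 and 8.69 TPM in knockout libraries, against 3.17, 3.40 and 5.24 TPM in wild-type libraries, without overlap (log2 fold change 0.73, unadjusted p = 0.0068). Uqcc1, which acts on cytochrome b, was at 53.2 ± 4.31 and 42.5 ± 4.97 TPM (log2 fold change 0.32, unadjusted p = 0.0185). Cox16 was next, at 61.3 ± 7.12 and 54.3 ± 1.68 TPM. Of the 17 genes of electron carriers and coenzyme Q synthesis, 8 were higher and 9 lower, with a median of -0.01. Their smallest p-values belonged to Coq9 (log2 fold change -0.12), Pdss2 (0.16) and Pdss1 (0.22).

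Among 17 regulators of mitochondrial biogenesis, 11 were higher and 6 lower, with a median of 0.04. Polrmt, the mitochondrial RNA polymerase, was at 29.7 ± 2.96 and 25.1 ± 3.88 TPM. Esrrg, a nuclear receptor of the ERR family, was at 11.0 to 13.8 TPM in 5 libraries and at 2.68 TPM in wild-type library 3. The factors whose letters were searched in the promoters were nearly level: Nrf1 was at 23.6 ± 3.80 and 24.1 ± 1.23 TPM, Gabpa at 30.4 ± 4.92 and 30.9 ± 3.56 TPM, Yy1 at 27.9 ± 2.12 and 28.9 ± 4.19 TPM, and Esrra at 14.9 ± 3.41 and 14.8 ± 0.795 TPM. Gabpb1, the partner of Gabpa, had a log2 fold change of -0.12. The citric acid cycle, which feeds complexes I and II, had 9 of 13 genes higher, with a median of 0.06. Idh3g, a subunit of isocitrate dehydrogenase, was at 160.0 ± 9.23 and 139 ± 11.3 TPM (unadjusted p = 0.036), and Mdh2, malate dehydrogenase, was at 236 ± 2.71 and 208 ± 18.6 TPM (unadjusted p = 0.0366). Glycolysis, which does not run through these complexes, had 15 of 17 genes higher, with a median of 0.07. Its genes had the same low library, with median deviations of 0.03, 0.06 and 0.00 in the knockout and -0.07, 0.03 and -0.10 in the wild type. Pfkm, Aldoa and Gapdh, all glycolytic enzymes, had log2 fold changes of 0.20, 0.16 and 0.14. No gene of these last 4 lists passed the adjusted threshold in limma.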

How the data were processed

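RNA-seq of cochlear total RNA from 3 knockout and 3 wild-type libraries was used, grouped by the genotype field of the labels. The deposited values are TPM, which in each library sum to 1000000 and have 2 decimals; the unit was read from the values, and TPM keeps no depth. The submitters' processing notes list DESeq2 and mm8 with no role, and no aligner, quantifier or annotation is named in the sources used here. Symbols, lengths and coding sequences came from GENCODE M21 (GRCm38), which named 52135 of the 55416 Ensembl IDs; promoters came from RefSeq (GRCm38.p6).

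The 17097 features that reached 1 TPM in 3 or more libraries entered the fit. It was made on log2(TPM + 1) with limma 3.58.1 (R 4.3.3), using intensity-trended, robust moderation and Benjamini-Hochberg adjustment at 0.05. Near-identical copies were found with BLAST 2.17.0. Ndufa4 and Ndufa4l2 were placed in complex IV, and Atp5s in complex V. Members, gene lists and tests were chosen with earlier results of these data known. Named genes were the core subunits, the members of each complex or list with the smallest p (up to 3), the highest and lowest in level and all tissue isoforms; genes whose groups did not overlap, the transcription factors of the motif search and the genes with abundant copies were added with their values known. Single-gene values of some genes under this rule are not reported here. The nerve score was the mean centred log2(TPM + 1) of the neuronal and Schwann cell markers. Because it went partly with genotype, fits with it cannot tell nerve content from genotype. Alternatives were other pseudocounts, filters, scalings and variance settings, a length correction, a replicate block, the nerve score as a covariate and each library left out in turn. The sum of a gene with its most abundant copy, and the summed level without wild-type library 3, were added after seeing the data.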

Additional observations from a re-analysis of the deposited data

How the results depend on the processing

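No member passed the adjusted threshold in any alternative that counted calls, and all 893 checks of named members stayed uncalled, 864 of them with the same direction. The count of members with a log2 fold change above 0 stayed between 56 (nerve score as a covariate) and 79 (without wild-type library 2). Their median was 0.029 with the nerve score and 0.046 to 0.107 when 1 library was left out, the lowest without wild-type library 3. Members at an unadjusted p under 0.05 on the higher side numbered 2 with the nerve score, 3 with no intensity trend and 3 to 16 when 1 library was left out.

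With the nerve score, the median was 0.061 for complex I, 0.026 for complex II, 0.004 for complex III, 0.019 for complex IV, -0.007 for complex V and -0.216 for the assembly factors. With 1 library left out, it ran from 0.056 to 0.168 for complex IV, from 0.020 to 0.103 for complex V and from -0.115 to 0.030 for the assembly factors, and the cause was not tested. Over all features, calls on the higher side numbered 1 with the nerve score and 0 to 2 when 1 library was left out. Calls on the lower side numbered 0 with no filter and with no intensity trend, 1 with median-ratio scaling, with mitochondrially encoded and haemoglobin genes removed and with the length trend removed, and 0 to 2 when 1 library was left out. A block on the replicate number gave 0, and left the count of members past the adjusted threshold at 0. Whether the numbers pair the libraries cannot be settled with 3 libraries in each group. To look at this, the mean of each gene in its own group was subtracted, and the remaining deviations were correlated over the tested features. The deviations of same-numbered libraries had correlations of 0.19, -0.05 and 0.24. Before that subtraction, pairs of libraries correlated at 0.964 to 0.985. By these deviations, knockout libraries 1 and 3 correlated best with the wild-type library of their own number, and knockout library 2 with wild-type library 3 (0.08).

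The direction turned for 14 named members. The nerve score gave -0.031 for Cox7a2, -0.009 for Cox7a2l, -0.038 for Cox7b, 0.060 for Ndufaf6, -0.109 for Ndufs1, 0.025 for Sdha, -0.008 for Sdhc and -0.006 for Uqcrh. The length correction gave -0.009 for Cox6b2 and -0.002 for Cox7a1, median-ratio scaling gave 0.001 for Ndufs3, and adding the copies, an alternative chosen after seeing the data, gave 0.015 for Atp5g2. When 1 library was left out, the range was -0.195 to 0.109 for Atp5g2, -0.047 to 0.036 for Cox6b2, -0.039 to 0.043 for Cox7a1, -0.003 to 0.026 for Cox7a2l, -0.061 to 0.000 for Ndufa7, -0.182 to 0.027 for Ndufaf6, -0.060 to 0.091 for Ndufs1, -0.033 to 0.029 for Ndufs3, -0.042 to 0.059 for Ndufs7 and -0.073 to 0.011 for Sdha. Depth is unknown, so counting error could not be set beside any of these values.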

Other observations

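Some genes of the same machinery fall outside the symbol rule. Usmg5, a small membrane subunit of the ATP synthase, was at 480.5 ± 28.6 TPM in knockout and 455.5 ± 29.1 TPM in wild-type libraries (log2 fold change 0.08). Atpif1, the inhibitor that holds the ATP synthase when it would run backwards, was at 436, 434 and 463 TPM against 431, 432 and 379 TPM, without overlap (log2 fold change 0.10, adjusted p = 0.989 in limma). The knockout libraries lay only just above wild-type libraries 1 and 2, and wild-type library 3 was lower. Ndufb1-ps, the complex I subunit gene that GENCODE lists as noncoding and RefSeq as the protein-coding Ndufb1, was at 51.0 ± 1.69 TPM and 45.5 ± 5.72 TPM (log2 fold change 0.17). These genes were chosen after their values were seen.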
